A study of Homo sapiens with 27 samples.

Results

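Telomeres end in a DNA repeat that is covered by shelterin, a protein complex which hides chromosome ends from the DNA damage machinery and controls the access of telomerase. Within shelterin, TERF1 and TERF2 bind the double-stranded repeat, POT1 binds the single-stranded overhang, TINF2 links the parts together, ACD (also called TPP1) joins POT1 to TINF2 and recruits telomerase, and TERF2IP (also called RAP1) binds TERF2. HMBOX1 is a homeobox protein that also binds telomeric DNA, and DKC1 encodes dyskerin, which stabilizes the RNA of telomerase and works in the modification of ribosomal RNA. These 8 genes were chosen, and 7 of them are described here, of the 16733 genes with splicing events in the table. TERF2IP was not analysed here. The 8 were taken by their Ensembl identifiers, ENSG00000147421 (HMBOX1), ENSG00000147601 (TERF1), ENSG00000132604 (TERF2), ENSG00000128513 (POT1), ENSG00000092330 (TINF2), ENSG00000102977 (ACD), ENSG00000166848 (TERF2IP) and ENSG00000130826 (DKC1). HMBOX1 was selected on measured values, because an event of this gene was among the highest ranked for the path changes between SRSF1 siRNA and scramble siRNA, and the other genes were added for their place at telomeres with results of that comparison known. Differences between SRSF1 siRNA and either control are therefore given as a description, and counts of calls in them are read as no evidence about the genes.

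The cells were A549, an established line from a human lung adenocarcinoma, in 3 conditions. They were transfected with an siRNA against SRSF1, an SR protein that guides the choice of splice sites, with a scramble siRNA, or treated with the transfection vehicle Lipofectamine alone, which the other conditions received too. Following the methods, each condition had 3 biological replicates, and each of these was hybridized to 3 HTA 2.0 arrays, which carry probes for exons and exon junctions, 27 hybridizations in all. The labels give each array the number of a sample and that of a replicate, and the sample number was read as that of the biological replicate, which the sources leave unsettled. What made the biological replicates separate is not given in the sources used here. Median log2 signals of the hybridizations lay between 6.23 and 6.33, and hybridizations of different conditions correlated at 0.957 to 0.986. Within a condition, those of different samples correlated at 0.971 to 0.990 and those of the same sample at 0.976 to 0.991. In RNA of a whole culture, fewer cells that express a gene and less RNA per cell cannot be told apart.

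An event of alternative splicing has a reference path, which every isoform of the event shares, and path 1 and path 2, which differ, with path 1 the longer one in the genome. Each path has 1 probe set and 1 log2 signal. The 8 genes had 47 events, of which 27 were tested, those in which each path exceeded the expression threshold, a log2 signal of 5.77, in at least 1 of the 9 samples. A path could thus pass through 1 condition alone, and in 11 of the 27 events a path was above the threshold in no SRSF1 siRNA sample or in no scramble sample. ACD kept 7 of 9 events, TINF2 6 of 8, POT1 5 of 10, DKC1 5 of 7, HMBOX1 2 of 7, TERF1 1 of 4 and TERF2 1 of 2. The 47 events hold 141 probe sets, but only 124 of them are distinct, since events of a gene can share a path, and such events are not separate measurements. Counts of distinct probe sets without overlap are given below as a description only, since their share over all probe sets was not computed. They include probe sets below the threshold, as only 13 of 19 in HMBOX1 and 20 of 27 in POT1 had a condition mean above it.

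With SRSF1 siRNA, the gene levels of ACD, HMBOX1, POT1 and TERF2 were lower than with scramble siRNA, and those of TERF1, TINF2 and DKC1 overlapped with it. The gene level averages the log2 signals of the gene's reference paths, and a probe set that several events share as their reference path counts once for each event. With each such probe set counted once, the same 4 genes were called. The 4 lower genes were called by limma at an adjusted p under 0.05, beside 27% of all 12545 genes tested that were called lower, and none of the 7 was called higher, beside 28.5% of all genes. In these 4 genes the samples did not overlap, as in 65.3% of all genes. The median log2 change was -0.26 over the 7 genes and 0.04 over all genes tested.

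**Figure D1:**
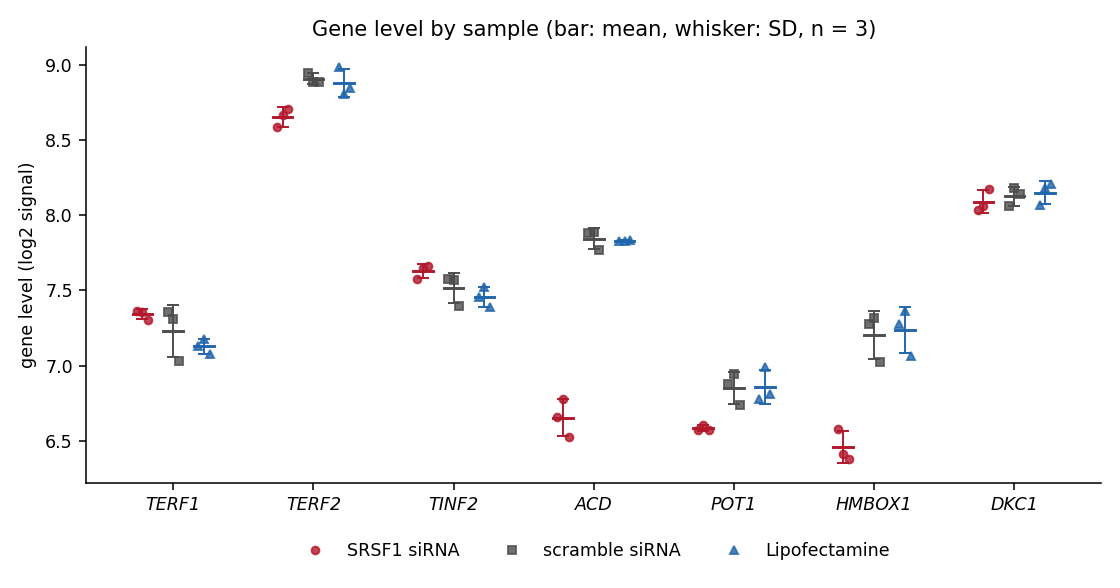
Gene level (log2 signal, mean of the reference paths) of the 7 telomere genes in each sample, by condition, with the mean as a bar and the SD as a whisker (n = 3). The SRSF1 siRNA samples lie below all control samples in ACD, HMBOX1, POT1 and TERF2.

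ACD, the subunit that recruits telomerase, had the largest change of the 7. Its gene level was 6.66, 6.78 and 6.53 with SRSF1 siRNA, against 7.88, 7.89 and 7.77 with scramble siRNA and 7.83, 7.83 and 7.84 with Lipofectamine. All SRSF1 siRNA samples were below all controls by almost a whole log2 unit or more. The change from scramble siRNA was -1.19 (standard error 0.06), which is 2.28-fold lower, and that from Lipofectamine was -1.18 (standard error 0.06). Of all genes tested, 2.74% were called more than 2-fold lower with SRSF1 siRNA than with scramble siRNA. Over the alternative settings the change of ACD from scramble siRNA ran from -1.25 to -0.86, which is less than 2-fold at its smallest.

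The loss of ACD signal was uneven between its probe sets. Its 27 probe sets hold 23 distinct ones, and 18 of these were lower in every SRSF1 siRNA sample than in every scramble sample, 4 overlapped and 1, path 1 of event 4, was higher. Log2 changes from scramble siRNA ran between -1.90 and 0.13, and 8 probe sets were more than 2-fold lower. The lowest was the reference path that events 12 and 13 share, with 5.68, 5.95 and 5.52 with SRSF1 siRNA, against 7.58, 7.69 and 7.58 with scramble siRNA. Path 2 of event 12 was 6.64, 6.78 and 6.80 with SRSF1 siRNA, against 8.69, 8.56 and 8.52 with scramble siRNA, a change of -1.85 (standard error 0.09). Path 1 of that event was 5.63, 5.78 and 5.77 with SRSF1 siRNA, against 5.80, 6.0 and 6.05 with scramble siRNA, a change of -0.23, with both conditions close to the threshold. Path 1 of event 24 was 6.96, 7.08 and 7.07 with SRSF1 siRNA, against 7.15, 7.18 and 7.02 with scramble siRNA, and its samples overlapped. Path 2 of that event was 4.48, 4.46 and 4.89 with SRSF1 siRNA, against 6.30, 6.19 and 6.12 with scramble siRNA.

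**Figure D2:**
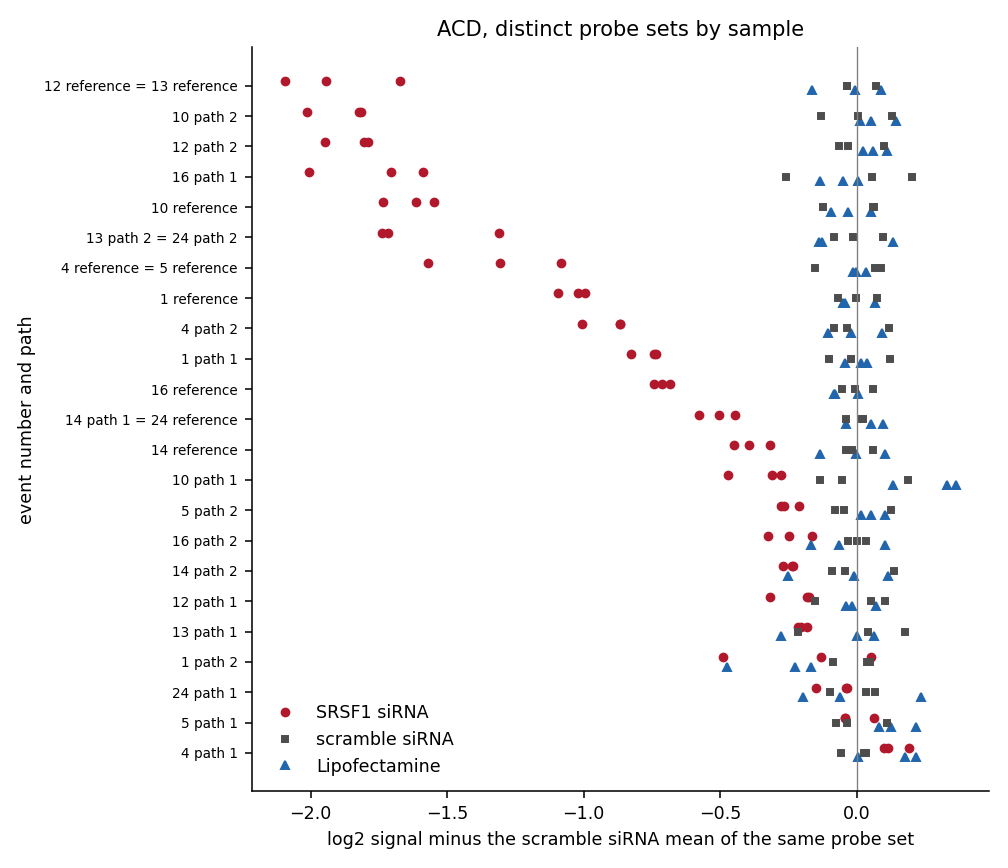
Log2 signal of each distinct ACD probe set in each sample, minus the mean of the scramble siRNA samples for the same probe set, with probe sets ordered by their change and named by event number and path. The SRSF1 siRNA samples lie apart from the controls in the upper rows, down to a change of -1.90, and among them in the lowest rows.

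No event of ACD was called, although the paths of most of its events changed unequally. A call needs path 1 and path 2 to move in opposite directions, and in 6 of the 7 tested events of ACD both paths had a negative change. The exception was event 4, with 0.13 in path 1 and -0.91 in path 2 (standard error 0.09), which was not called. It was called in 5 of the 19 alternative settings that tested it, among them the spread of each path by itself and the sample number as a block. The difference of the path changes, path 1 minus path 2, was 1.62 in event 12 (standard error 0.13), 1.51 in event 24 (standard error 0.14) and -1.52 in event 16 (standard error 0.14). In these events, then, 1 path lost far more signal than the other. Path 2 of event 24 was above the threshold in every control sample and in no SRSF1 siRNA sample, so the filter itself favoured the difference in that event. In RefSeq's annotation ACD overlaps CARMIL2, and the part of that gene in these signals was not tested.

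POT1, the protein on the single-stranded overhang and the partner of ACD, was also lower. Its gene level was 6.57, 6.61 and 6.57 with SRSF1 siRNA, against 6.88, 6.95 and 6.74 with scramble siRNA and 6.78, 6.99 and 6.81 with Lipofectamine. The samples did not overlap with either control, and the changes were -0.27 from scramble siRNA and -0.27 from Lipofectamine (standard error 0.07 each), a 1.20-fold difference in the first. With the median of the reference paths in place of their mean, the change was -0.12 from scramble siRNA and -0.16 from Lipofectamine and neither was called. Of the 27 distinct probe sets of POT1, 15 were lower without overlap, 1 was higher and 11 overlapped, with log2 changes between -0.56 and 0.26.

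In event 9 of POT1 the paths moved in opposite directions. Path 1 was 7.01, 6.88 and 6.71 with SRSF1 siRNA, against 6.56, 6.65 and 6.67 with scramble siRNA. Path 2 was 5.48, 5.24 and 5.25 with SRSF1 siRNA, against 5.89, 5.89 and 5.49 with scramble siRNA. Neither path overlapped, though the closest samples of each path lay within 0.1 of each other. The changes were 0.24 and -0.43 (standard error 0.10 each), and the event was called. Path 2 passed the filter only through samples 1 and 2 of scramble siRNA, the condition where it was highest, so the filter itself favoured this difference, and the event was called with no filter too. Against Lipofectamine they were 0.26 and -0.18, path 2 overlapped and the event was not called, while with the sample number as a block it was called in both comparisons. Path 1 of this event was the only distinct probe set of POT1 that was higher without overlap.

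The promoters of ACD and POT1 are shown because these partner genes were lower together and have an entry in RefSeq's promoter table. ACD lies on chromosome 16 (chr16:67660211-67660510, minus strand) and POT1 on chromosome 7 (chr7:124929776-124930075, minus strand) of GRCh38.p14, and each window runs from 250 bases before the start of the gene to 50 after it. Capitals mark the GC box GGGCGG or its reverse complement CCGCCC, and the cAMP response element TGACGTCA, which reads the same on both strands.
ACD: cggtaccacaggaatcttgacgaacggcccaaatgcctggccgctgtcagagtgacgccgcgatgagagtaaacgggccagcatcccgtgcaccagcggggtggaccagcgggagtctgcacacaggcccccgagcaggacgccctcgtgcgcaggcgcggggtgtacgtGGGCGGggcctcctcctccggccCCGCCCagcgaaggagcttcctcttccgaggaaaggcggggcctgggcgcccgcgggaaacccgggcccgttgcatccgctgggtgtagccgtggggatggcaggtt
POT1: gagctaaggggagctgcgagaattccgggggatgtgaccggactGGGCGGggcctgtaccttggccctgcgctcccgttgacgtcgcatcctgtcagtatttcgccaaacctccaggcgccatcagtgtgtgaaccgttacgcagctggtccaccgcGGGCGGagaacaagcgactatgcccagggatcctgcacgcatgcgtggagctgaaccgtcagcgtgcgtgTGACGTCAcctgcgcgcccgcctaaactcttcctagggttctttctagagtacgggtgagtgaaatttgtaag
Both windows held 2 GC boxes, a motif found in 45% of all 35116 promoters of the table. The POT1 window also held 1 cAMP response element, found in 1.85% of them, and the ACD window had none. The telomere repeat TTAGGG or its reverse complement CCCTAA, found in 9.05% of promoters, was in neither window. These letters are a description of the sequence and name no site that was measured.

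TERF2, which folds the chromosome end and binds TERF2IP, changed little but evenly. Its gene level was 8.59, 8.67 and 8.71 with SRSF1 siRNA, against 8.95, 8.89 and 8.89 with scramble siRNA and 8.99, 8.81 and 8.85 with Lipofectamine. All SRSF1 siRNA samples were below all controls, by -0.26 from scramble siRNA and -0.22 from Lipofectamine (standard error 0.06 each). All of its 6 probe sets had a negative change from scramble siRNA, between -0.36 and -0.15, and 5 of them did not overlap. In its single tested event, number 13, path 1 was 7.14, 7.19 and 7.08 with SRSF1 siRNA, against 7.22, 7.45 and 7.24 with scramble siRNA. Path 2 of that event was 6.82, 7.03 and 6.90 with SRSF1 siRNA, against 7.08, 7.32 and 7.14 with scramble siRNA. Both paths were lower, at changes of -0.16 in path 1 and -0.27 in path 2, and the difference of these was 0.10 (standard error 0.13). That standard error treats the paths as independent, although both came from the same samples.

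TERF1, the other protein on the double-stranded repeat and a regulator of telomere length, was not among the lower genes. Its gene level was 7.37, 7.36 and 7.31 with SRSF1 siRNA, against 7.36, 7.31 and 7.03 with scramble siRNA and 7.13, 7.17 and 7.08 with Lipofectamine. It overlapped with scramble siRNA, where sample 3 was the low one, at a change of 0.11 (standard error 0.07), and lay above all Lipofectamine samples at 0.22. In its event 12, path 1 had a change of 0.04 from scramble siRNA with overlapping samples. Path 2 was 5.87, 6.05 and 5.94 with SRSF1 siRNA, against 5.75, 5.66 and 5.72 with scramble siRNA, and did not overlap. It was above the threshold in the SRSF1 siRNA samples only, so the event was tested because this path was high there. The difference of the path changes was -0.20 (standard error 0.15), and the event was not called. TERF1 and TERF2, which have related DNA-binding domains, had changes of opposite sign from scramble siRNA, with overlapping samples in TERF1.

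**Figure D3:**
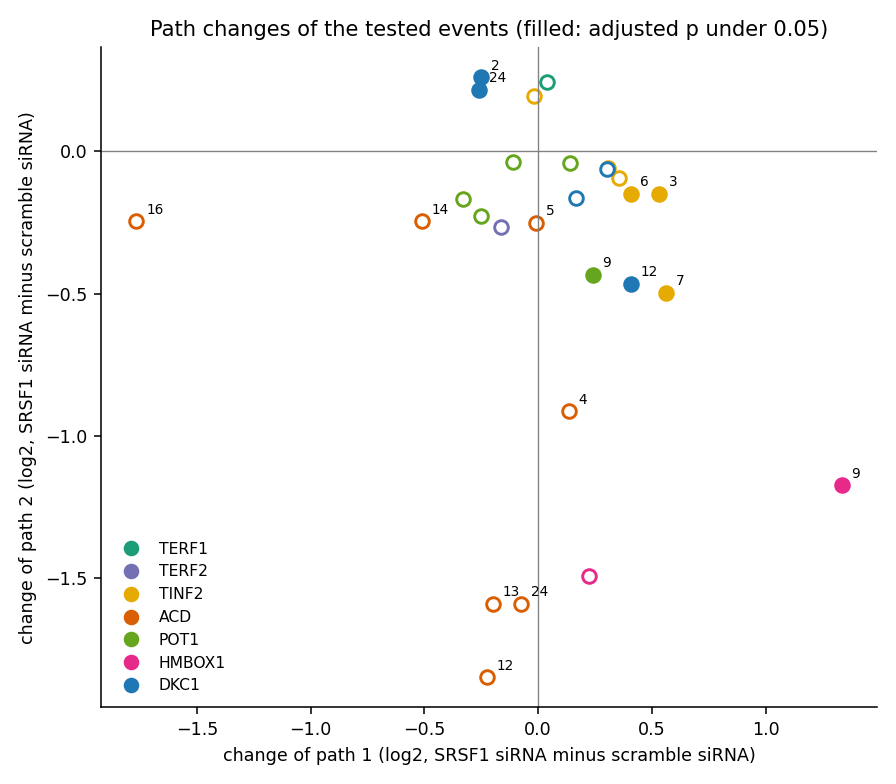
Log2 change of path 2 against that of path 1, SRSF1 siRNA minus scramble siRNA, for the 27 tested events, 1 point per event and 1 colour per gene, filled where the event was called and with the event number beside called events and those of ACD. Called events lie in the quadrants of opposite signs, with event 9 of HMBOX1 farthest out, and 6 events of ACD lie where both changes are negative.

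Of the 27 tested events, 16 had path changes of opposite sign between SRSF1 siRNA and scramble siRNA, a count given without its share over all events. Of the 27, 8 were called, beside 8.35% of all 25805 events tested. They were 3 events of TINF2, 3 of DKC1, 1 of POT1 and 1 of HMBOX1. Path 1 was up in 6 of them and path 2 in 2, and in 5 both paths were free of overlap. Of the 8 called events 5 were among the 11 with a path below the threshold in every SRSF1 siRNA or every scramble sample, event 9 of HMBOX1, event 7 of TINF2, event 9 of POT1 and events 2 and 24 of DKC1. Such a path was tested because it was high in the other samples, so these counts describe the filter as well as the events. With no filter 7 of the 8 were called, all but event 6 of TINF2. Without sample 1 of SRSF1 siRNA 3 of the 8 genes' events were called, event 9 of HMBOX1, event 7 of TINF2 and event 12 of DKC1. Without sample 2 of SRSF1 siRNA 5 were called, those 3 with event 9 of POT1 and event 2 of DKC1. Those 3 events were also the ones called when each path had to pass by itself.

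HMBOX1 moved toward path 1 of event 9, which the study classed as an alternative first exon. The study also tested this event by PCR and reported a significant difference. Path 1 was 6.06, 5.95 and 5.82 with SRSF1 siRNA, against 4.43, 4.76 and 4.63 with scramble siRNA and 4.57, 4.81 and 4.46 with Lipofectamine. Path 2 was 5.72, 5.69 and 5.43 with SRSF1 siRNA, against 6.90, 6.91 and 6.55 with scramble siRNA and 6.95, 7.06 and 6.69 with Lipofectamine. With SRSF1 siRNA path 1 was just above the expression threshold and path 2 just below it, while in the controls path 1 was far below it, so each path passed the filter only through the samples where it was high. The signal of path 1 exceeded that of path 2 in each SRSF1 siRNA sample and in no control sample, but the paths have different probes and their levels cannot be set against each other as amounts.

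Most of the rest of HMBOX1 was lower. The gene level was 6.58, 6.41 and 6.38 with SRSF1 siRNA, against 7.28, 7.31 and 7.02 with scramble siRNA and 7.28, 7.36 and 7.07 with Lipofectamine. The change was -0.75 from scramble siRNA and -0.78 from Lipofectamine (standard error 0.09 each), with no overlap. Of its 19 distinct probe sets, 14 were lower than with scramble siRNA without overlap, 4 overlapped and path 1 of event 9 alone was higher, and changes ran from -1.49 to 1.34. The lowest was path 2 of event 11, with 4.81, 4.91 and 4.69 with SRSF1 siRNA, against 6.80, 6.16 and 5.92 with scramble siRNA. Path 1 of event 11 overlapped at a change of 0.22, and that event was not called, but it was in 4 of the 17 alternative settings that tested it. Its path 1 was above the threshold in 1 SRSF1 siRNA sample only, and its path 2 in control samples only, so the filter favoured these changes. In RefSeq's annotation the gene overlaps LOC105379346 and RNA5SP260, whose part in these signals was not tested.

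**Figure D4:**
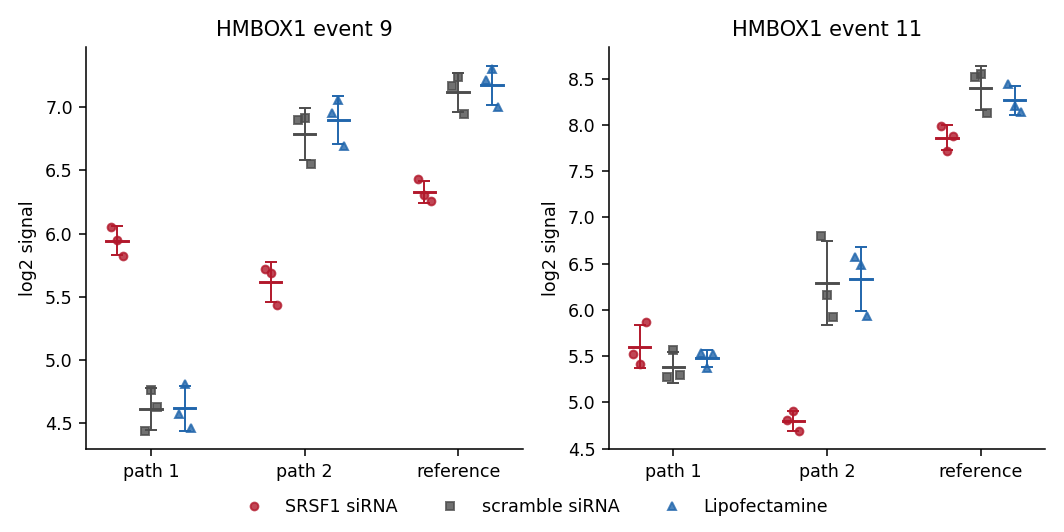
Log2 signal of path 1, path 2 and the reference path in the tested events 9 and 11 of HMBOX1, by sample and condition, with the mean as a bar and the SD as a whisker (n = 3). In event 9 the SRSF1 siRNA samples are above the controls in path 1, at 5.82 to 6.06, and below them in path 2 and the reference path.

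The genes whose level followed that of HMBOX1 most closely over the 9 samples, among the 15 other genes with a name that were tested, were ACD (Pearson's r = 0.96), the kinesin gene KIF23 (0.95) and SUPT16H (0.93), which encodes a part of the histone chaperone FACT. Besides the telomere genes, the genes with a name were those of the study's top-ranked events between SRSF1 siRNA and scramble siRNA, so they were picked from these same data. These samples fall into conditions, so r mostly repeats the difference between SRSF1 siRNA and the controls, and no p is given.

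TINF2, which holds TERF1, TERF2 and ACD together, overlapped with scramble siRNA in its gene level and had called changes in its paths. The gene level was 7.58, 7.65 and 7.66 with SRSF1 siRNA, against 7.58, 7.57 and 7.40 with scramble siRNA and 7.46, 7.52 and 7.39 with Lipofectamine. The change from scramble siRNA was 0.11 (standard error 0.06), which was called in 3 of the 21 alternative settings, and the level lay above all Lipofectamine samples at 0.17. Of its 20 distinct probe sets, 8 were higher than with scramble siRNA without overlap, 1 was lower and 11 overlapped.

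The lower one was path 2 of event 7. It was 5.15, 5.45 and 5.01 with SRSF1 siRNA, against 5.79, 5.81 and 5.50 with scramble siRNA and 5.30, 5.63 and 5.44 with Lipofectamine, so it overlapped with Lipofectamine. Path 1 of that event was 6.57, 6.57 and 6.61 with SRSF1 siRNA, against 5.93, 6.10 and 6.03 with scramble siRNA and 5.87, 6.04 and 5.83 with Lipofectamine. The rise of path 1 was thus clear of both controls, while the fall of path 2 was clear of the scramble samples only. The changes from scramble siRNA were 0.56 and -0.50 (standard error 0.10 each), and the event was called. Path 2 passed the filter only through samples 1 and 2 of scramble siRNA, where it was highest, so the filter itself favoured this difference. The event was called with no filter too, and in the other 18 alternative settings that tested it.

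Events 3 and 6 of TINF2 share their path 2, which was 7.05, 7.02 and 7.05 with SRSF1 siRNA, against 7.25, 7.29 and 7.03 with scramble siRNA, and overlapped. Path 1 of event 3 was 6.53, 6.50 and 6.64 with SRSF1 siRNA, against 6.01, 6.10 and 5.97 with scramble siRNA. Path 1 of event 6 was 7.57, 7.70 and 7.67 with SRSF1 siRNA, against 7.30, 7.09 and 7.33 with scramble siRNA. Both calls rested mainly on the rise of path 1, by 0.53 and 0.41, beside -0.15 in the shared path 2. They were lost in 5 and 8 of the 19 alternative settings, both of them when each path had to pass by itself and without sample 1 or 2 of either condition, with path differences of 0.64 to 0.70 in event 3. Event 6 was also lost without sample 3 of SRSF1 siRNA, with no filter, and with hybridizations fitted with the sample as a random block, and its path difference ran from 0.43 to 0.60 over these settings. Neither was called against Lipofectamine.

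DKC1 had a gene level of 8.04, 8.06 and 8.18 with SRSF1 siRNA, against 8.06, 8.18 and 8.14 with scramble siRNA and 8.07, 8.18 and 8.21 with Lipofectamine. The samples overlapped, with a change of -0.04 from scramble siRNA and -0.06 from Lipofectamine (standard error 0.06 each). With shared reference paths counted once the change from scramble siRNA was -0.11, with their median it was 0.18, and neither was called. The mean covered reference paths that moved in different directions. The reference path of event 12 was 9.46, 9.49 and 9.58 with SRSF1 siRNA, against 9.79, 9.87 and 9.84 with scramble siRNA, a change of -0.32. The reference path that events 13 and 14 share was 7.04, 6.95 and 6.83 with SRSF1 siRNA, against 6.42, 6.69 and 6.47 with scramble siRNA, a change of 0.41. Of the 19 distinct probe sets of DKC1, 8 were lower without overlap, 4 were higher and 7 overlapped.

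The same probe set with the change of 0.41 is path 1 of event 12. Path 2 of event 12 was 9.46, 9.45 and 9.71 with SRSF1 siRNA, against 9.98, 10.05 and 9.97 with scramble siRNA and 9.95, 9.96 and 10.12 with Lipofectamine. Path 2 was lower and path 1 higher than both controls with no overlap, and the event was called in all 20 alternative settings that tested it. In events 2 and 24 the direction of the labels was the reverse, with path 1 lower and path 2 higher. In event 2 path 1 was 8.83, 8.89 and 8.96 with SRSF1 siRNA, against 9.04, 9.19 and 9.21 with scramble siRNA. Path 2 of event 2 was 6.03, 5.83 and 5.77 with SRSF1 siRNA, against 5.52, 5.70 and 5.63 with scramble siRNA. Both paths of event 2 overlapped with Lipofectamine, at changes of -0.24 in path 1 and 0.04 in path 2, and the event was not called there. In event 24 path 1 was 8.10, 8.13 and 8.24 with SRSF1 siRNA, against 8.42, 8.42 and 8.40 with scramble siRNA, and path 2 had a change of 0.21 with overlapping samples.

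Path 2 of events 2 and 24 was above the threshold in no scramble sample. Event 24 was not called without sample 1 of either condition or sample 2 of SRSF1 siRNA, with path differences of -0.44 to -0.37. In RefSeq's annotation 3 small RNA genes lie within DKC1, SNORA36A, SNORA56 and MIR664B, and their part in these signals was not tested.

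**Figure D5:**
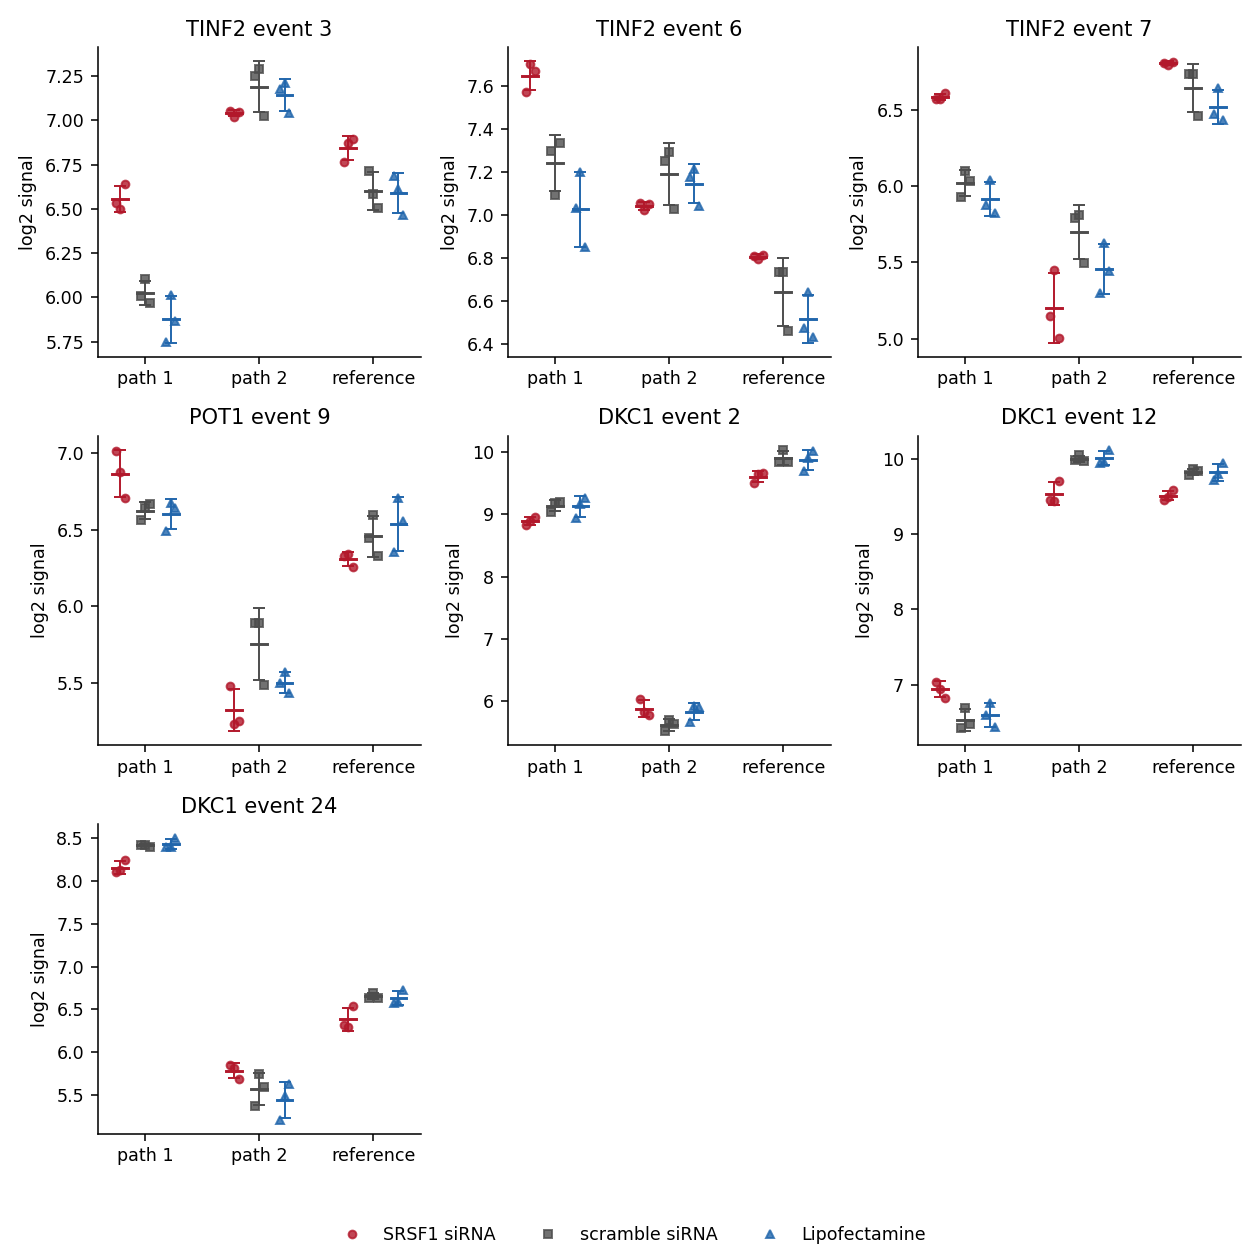
Log2 signal of path 1, path 2 and the reference path in the called events of TINF2, POT1 and DKC1, by sample and condition, with the mean as a bar and the SD as a whisker (n = 3), each panel on its own scale. Path 1 is higher with SRSF1 siRNA in the events of TINF2, in event 9 of POT1 and in event 12 of DKC1, and in events 2 and 24 of DKC1 the mean of path 2 is above that of scramble siRNA.

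Against Lipofectamine, 4 of the 27 events were called with SRSF1 siRNA, event 9 of HMBOX1, event 7 of TINF2 and events 12 and 24 of DKC1, beside 6.08% of all events. Path 2 of event 24 of DKC1 was above the threshold in 2 SRSF1 siRNA samples and in no Lipofectamine sample. In event 9 of HMBOX1 path 1 was above it in SRSF1 siRNA samples only, and path 2 in control samples only. The filter itself thus favoured the differences in both of these events. The same 4 genes were called lower as against scramble siRNA, beside 24.1% of all genes, and TERF1 and TINF2 were called higher, beside 27.7%. The call of TERF1 was lost without sample 1 or 2 of SRSF1 siRNA or sample 1 or 3 of Lipofectamine, at 0.19 to 0.22, and that of TINF2 without sample 2 or 3 of SRSF1 siRNA or sample 1 or 3 of Lipofectamine, at 0.14 to 0.17. TINF2 was not called either with each array centred on its median, at 0.16, or with the median of the reference paths or shared ones counted once, at 0.14 in both, nor was TERF1 with the mean of all paths, at 0.14. Event 7 of TINF2 was not called against Lipofectamine without sample 3 of SRSF1 siRNA or sample 2 of Lipofectamine. When each path had to pass by itself, event 7 of TINF2 and event 24 of DKC1 were not called against Lipofectamine. This comparison shares the SRSF1 siRNA samples with the one above and is no separate support for it.

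The scramble siRNA itself could be tested against Lipofectamine, since that difference did not choose the genes, though it uses the same scramble samples. None of the 7 genes was called by limma, beside 20.1% of all genes called in either direction, and none had an unadjusted p under 0.05. Their changes ran from -0.03 in HMBOX1 to 0.10 in TERF1 (standard error 0.07, adjusted p = 0.385 from limma). In ACD the change was 0.01, with a 95% interval of -0.12 to 0.15 and an adjusted p of 0.930, and in HMBOX1 the interval was -0.23 to 0.17. TERF1 was called at 0.20 when sample 3 of scramble siRNA, its low sample, was left out, and at 0.10 when the replicate number of the labels was taken as the biological replicate. Of the 27 events 0 were called by limma, beside 0.275% of all events, with a lowest adjusted p of 0.628. These fits left out the pairing by sample number, and with that number as a block none of the 7 genes and none of their events was called either. The only event with an unadjusted p under 0.05 was event 15 of TINF2, whose path 1 changed by 0.08 and path 2 by -0.22 (standard error 0.08 each). Its path 2 was 5.58, 5.62 and 5.41 with scramble siRNA, against 5.88, 5.63 and 5.77 with Lipofectamine. That path was above the threshold in 1 Lipofectamine sample, 1 SRSF1 siRNA sample and no scramble sample, so the filter itself favoured this difference. The largest path change of the 27 events in this comparison was 0.25, in path 2 of event 9 of POT1, against 1.85 in path 2 of event 12 of ACD between SRSF1 siRNA and scramble siRNA. The POT1 path was above the threshold in 2 scramble samples and in no Lipofectamine sample, so the filter favoured its change too.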

How the data were processed

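RNA of A549 cells was measured on HTA 2.0 arrays, 9 hybridizations for each of 3 conditions. The authors mapped the probes to an Ensembl human transcriptome, left out probes that hit more than 3 genes, and ran background correction, quantile normalization over all arrays and RMA summaries per path. The deposited values are therefore log2 signals, which are relative to the whole set of arrays, so a change common to most genes would not be seen.

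The 3 hybridizations of a sample were averaged, and the 9 samples of the 3 conditions were fitted together in limma 3.58.1 under R 4.3.3. All paths of an event shared 1 spread and were fitted as independent measurements. The standard errors of differences between path changes thus leave out that both paths came from the same samples. For opposite changes of path 1 and path 2, the sum of both one-sided p-values was compared with a triangular distribution, following the methods, and p-values were adjusted over all events tested by the method of Benjamini and Hochberg. Events were tested if each path passed, in its highest sample, the 25% quantile of the highest reference signals, a quantile chosen here. A gene was tested if its mean reference signal passed the same value in its highest sample. On simulated data the tests recovered the changed events and genes, but with paths of unequal spread the event test called more unchanged events than its threshold aims for, and a call can rest mainly on 1 path.

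The 8 genes and the events to describe were chosen with earlier results of these data known. The rule named every gene of the 8, every called event and, for a gene with none, the tested event with the largest path change, besides the 3 named genes closest to HMBOX1. Deviations from the condition means correlated between samples of the same number at 0.282, 0.287 and 0.396 for scramble siRNA and Lipofectamine, and at 0.190, 0.110 and 0.171 for SRSF1 siRNA and Lipofectamine, so the number was taken to pair these. For SRSF1 and scramble siRNA they correlated at 0.128, 0.103 and 0.041, the last below the cutoff set here for pairing. These conditions were thus not taken as paired, though pairing of each with Lipofectamine would pair them as well. The main fits left out pairing by the sample number, and that number as a block was fitted as an alternative, with its calls given below. Names were at hand for the 8 genes and for genes the paper names by identifier, so SRSF1 itself, markers of other cell types and the planned lists of other telomere genes were not analysed here. Precision is limited by the 3 biological replicates of each condition, since the hybridizations of a sample were averaged.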

Additional observations from a re-analysis of the deposited data

How the results depend on the processing

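The calls of ACD, HMBOX1 and TERF2 as lower with SRSF1 siRNA kept their direction and their side of the threshold in all 21 alternatives, against either control. With scramble siRNA as control, log2 changes ran from -1.25 to -0.86 in ACD, -0.84 to -0.51 in HMBOX1 and -0.28 to -0.22 in TERF2. The log2 change of DKC1 was never called, and ran from -0.11 to 0.18. Among the genes' events, HMBOX1 9, TINF2 7 and DKC1 12 were called in every alternative that tested them between SRSF1 and scramble siRNA. With a filter at the 50% quantile HMBOX1 9 was not tested, and the genes had 1 called event against either control, while 747, 43 and 573 events of all genes were called for SRSF1 against scramble siRNA, scramble siRNA against Lipofectamine and SRSF1 siRNA against Lipofectamine. With no filter these were 4039, 135 and 2988. With the weaker one-sided p-value of an event's paths, doubled, in place of the sum they were 409, 2 and 338, and 3 and 2 events of the telomere genes were called for SRSF1 siRNA against scramble siRNA and Lipofectamine. Between scramble siRNA and Lipofectamine the count of all events moved most, to 242 with hybridizations as arrays of their own, 133 with the sample as a random block, 402 with the replicate number as the biological replicate, 39 with only these conditions fitted and 30 with a spread for each path. Called genes in that comparison were 4555 with hybridizations as arrays and 5196 with the replicate number as the biological replicate, which also called 1 telomere gene, TERF1. With the sample number as a replicate block, 191 events were called there. The replicate block called 10 events of the telomere genes between SRSF1 and scramble siRNA, adding ACD 4 and HMBOX1 11 to the 8, and 5 between SRSF1 siRNA and Lipofectamine, adding POT1 9. It changed no call of the 7 genes. Leaving out 1 sample at a time gave 3 to 8 called events of these genes between SRSF1 and scramble siRNA, 24 to 142 events and 1525 to 2535 genes in all between scramble siRNA and Lipofectamine, with 0 to 1 of the 7 genes called. Without sample 2 of scramble siRNA these were 24 events and 1525 genes. The causes were not tested.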
